A study of Mus musculus with 4 samples.

Results

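Among sorted mouse regulatory T (Treg) cells, a small set held transcripts of both Cxcr5, the chemokine receptor that draws lymphocytes into B cell follicles, and Pdcd1, which encodes the inhibitory receptor PD-1. A cell was taken when its barcode had at least 500 detected genes, at most 10% of its UMIs from mitochondrial genes, and at least 1 UMI each of Foxp3, Cxcr5 and Pdcd1. A UMI (unique molecular identifier) marks 1 captured transcript. The cells were thus chosen by their measured UMIs of these 3 genes. By this rule 306 double-positive cells were found among 13738 Foxp3 cells (2.23%), out of 20294 cells that passed the filters and 24546 barcodes. Spleen held 251 of them (82%). On GRCm38, Cxcr5 lies at chromosome 9, 44511787 to 44561877, Pdcd1 at chromosome 1, 94038305 to 94052553, and Foxp3 at chromosome X, 7573644 to 7595245. The other Foxp3 cells fell into 2635 with Pdcd1 only, 514 with Cxcr5 only and 10283 with neither gene, and the last class was the main comparison within each library.

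CXCR5 and PD-1 together are the classical surface signature of follicular helper T cells, which guide B cells in germinal centres, and of follicular regulatory T (Tfr) cells, which restrain that help. Tfr cells arise from Foxp3 Treg cells that take up the transcription factor BCL6, while the IL-2 receptor and its STAT5 signal, the repressor BLIMP1 and the factor KLF2 oppose that program. Within lymphoid tissue they leave the T cell zone by lowering the receptors that keep T cells in recirculation and by raising CXCR5.

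The libraries are 10x Genomics 5′ single-cell RNA libraries of CD4+ Foxp3GFP+ cells on a C57BL/6 background, enriched on CD4 beads and then sorted. There are 4, 1 for each pairing of age and tissue, namely 7-week liver, 12-day (neonatal) liver, 7-week spleen and 12-day (neonatal) spleen. The 12-day mice carried Foxp3GFP-Cre with a Rosa26 loxP-Stop-loxP-YFP reporter, in which Cre made by Foxp3 cells switches on YFP. For the 7-week mice only the Foxp3GFP tag is given, their stage label reads "aged", and the number of mice in a library is not given for either age. With 1 library per age and tissue, age, tissue, genotype and library cannot be told apart, so no test was made between libraries.

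Libraries held 7442185 to 33813594 UMIs in all, and the median cell kept had 2663 UMIs in 7-week liver, 4444.5 in neonatal liver, 2936.5 in 7-week spleen and 4540.5 in neonatal spleen. Pairs of libraries shared 23 to 91 barcode sequences, and none was a double-positive cell in both libraries of a pair. All 6 T cell markers looked at (Cd3e, Cd3d, Cd3g, Cd4, Trac and Lat) were present in the double-positive cells of every library, at a summed level of 3931 to 5894 CPM (UMIs of a gene per 1e+06 UMIs summed over a class of cells in a library), against 4150 to 4609 CPM in cells with neither gene. In the double-positive cells, summed hepatocyte markers reached at most 2.85 CPM and erythroid markers at most 25.7 CPM, both in neonatal spleen. Macrophage and monocyte markers summed to 38.8 CPM in 7-week liver (2 UMIs), 11.1 in neonatal liver, 8.18 in 7-week spleen and 7.85 in neonatal spleen.

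The double-positive cells numbered 10 of 1458 Foxp3 cells in 7-week liver (0.686%, exact 95% interval 0.329 to 1.26), 45 of 4157 in neonatal liver (1.08%, 0.791 to 1.45), 105 of 3828 in 7-week spleen (2.74%, 2.25 to 3.31) and 146 of 4295 in neonatal spleen (3.40%, 2.88 to 3.99). Both spleen shares lay above both liver shares, and the spleen intervals did not overlap the liver ones. These intervals cover counting error only. Detection of 2 sparse genes depends on depth, so each cell with at least 2000 UMIs was also thinned to 2000. The share was then 4 of 1106 cells in 7-week liver (0.362%, 0.0986 to 0.923), 5 of 3828 in neonatal liver (0.131%, 0.0424 to 0.305), 40 of 3280 in 7-week spleen (1.22%, 0.873 to 1.66) and 20 of 3977 in neonatal spleen (0.503%, 0.307 to 0.776). After thinning the interval of 7-week spleen lay above those of neonatal spleen and neonatal liver and overlapped that of 7-week liver. The order of the spleen libraries differed between the thinned and unthinned shares, so no order between them is read here.

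**Figure D1:**
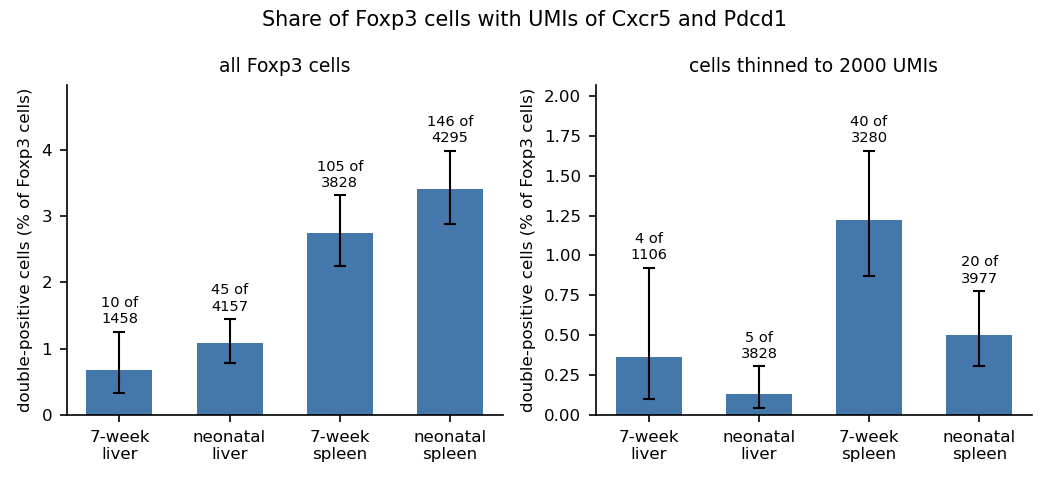
Share of Foxp3 cells with at least 1 UMI of both Cxcr5 and Pdcd1 in each library (y axis, percent), without thinning on the left and after thinning each cell to 2000 UMIs on the right; error bars are exact 95% binomial intervals and the numbers are cells. The share was 2.74% in 7-week spleen and 3.40% in neonatal spleen without thinning, and 1.22% in 7-week spleen and 0.503% in neonatal spleen after it.

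The genes of the rule are described here without a test, since they chose the cells. In double-positive cells Cxcr5 stood at 214 CPM in 7-week liver, 124 in neonatal liver, 265 in 7-week spleen and 143 in neonatal spleen. Pdcd1 stood at 252, 200, 540 and 243 CPM in the same order of libraries. Many cells sat at the threshold: 126 of 306 (41.2%) held exactly 1 UMI of each gene, which was 8 of 10 in 7-week liver, 22 of 45 in neonatal liver, 31 of 105 in 7-week spleen and 65 of 146 in neonatal spleen. At the other end the richest cell held 10 Cxcr5 UMIs and the richest for Pdcd1 held 20, both maxima in neonatal spleen. Only 54 cells had 2 or more UMIs of both genes, and 28 of those were in 7-week spleen. Foxp3 itself had 389 CPM in double-positive cells against 662 in cells with neither gene in 7-week spleen, and 363 against 580 in neonatal spleen. Every cell of these classes needed at least 1 Foxp3 UMI, and that minimum is a higher CPM in a shallower cell. Cells with neither gene were shallower, with medians of 2986 UMIs against 5275 in 7-week spleen and 4577 against 8087 in neonatal spleen. The Foxp3 levels are therefore not read as a difference in expression.

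Double-positive cells were deeper than the cells they are compared with. Their median was 4234.5 UMIs against 2838 in cells with neither gene in 7-week liver, 8301 against 4560 in neonatal liver, 5275 against 2986 in 7-week spleen and 8087 against 4577 in neonatal spleen. When the Foxp3 cells of a library were split into 5 equal bins of depth, between 40% (7-week liver) and 59.0% (7-week spleen) of the double-positive cells fell in the deepest bin. If Cxcr5 and Pdcd1 were detected independently within each depth bin, 6.20 cells would hold both in 7-week liver, 43.0 in neonatal liver, 68.3 in 7-week spleen and 102 in neonatal spleen. The observed 10, 45, 105 and 146 cells were 1.61, 1.05, 1.54 and 1.43 times these numbers. These ratios describe the UMIs that chose the cells, with depth held in 5 bins only, and carry no test. Pdcd1 UMIs were also found in 5 of the 20 neonatal spleen barcodes with at least 10 macrophage UMIs (25%, exact 95% interval 8.66 to 49.1, median 6491 UMIs), of which 13 held a Foxp3 UMI, against 23.6% of all Foxp3 cells there (median 4981 UMIs). The share of cells with a Pdcd1 UMI is therefore not read as expression. Of those 20 barcodes 0 held Cxcr5, which allows a share of up to 15%, against 7.87% of Foxp3 cells.

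The full list of 18 B cell genes, which holds transcripts such as Cd74 that are found widely in these libraries, summed in double-positive cells to 602 CPM in 7-week liver, 1381 in neonatal liver, 775 in 7-week spleen and 629 in neonatal spleen, against 654, 833, 493 and 532 CPM in cells with neither gene. The part of B cell RNA in the results was not tested. UMIs of 11 genes that define B cells were found in 1 of 10 double-positive cells in 7-week liver, 2 of 45 in neonatal liver, 8 of 105 in 7-week spleen and 7 of 146 in neonatal spleen. Among cells with neither gene the shares were 1.23%, 2.65%, 1.62% and 1.94% in that order. The double-positive share in 7-week spleen was 7.62% (exact interval 3.35 to 14.5), above that of cells with neither gene (1.19 to 2.15). In neonatal spleen it was 4.79% (1.95 to 9.63), which overlapped theirs (1.48 to 2.49). Double-positive cells were also deeper, and the part of depth in these shares was not tested. In the spleen libraries and 7-week liver each double-positive cell with RNA of these 11 genes held 1 such UMI. In neonatal liver the 2 cells held all 65 UMIs, and of the 35 barcodes there with at least 5 B cell UMIs 11 (31.4%) also held Cxcr5, a gene that B cells use. Igkc, an immunoglobulin gene of the full list, is not among the 11. In 7-week spleen it was at 55.6 CPM in double-positive cells against 4.63 in cells with neither gene. Its 34 UMIs there lay in 9 of 105 cells, with up to 8 in 1 cell. It was at 0 against 12.9 CPM in 7-week liver, 20 against 17.1 in neonatal liver and 11.4 against 8.74 in neonatal spleen. Doublet scoring marked 0 of 10 double-positive cells in 7-week liver, 6 of 45 in neonatal liver, 5 of 105 in 7-week spleen and 10 of 146 in neonatal spleen.

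To ask which genes went with the pair, UMIs were summed for each library and class and double-positive cells were tested against cells with neither gene, with the library as a term and the 4 libraries as samples. Of 8722 genes tested, 509 were higher in double-positive cells (5.84%) and 563 lower (6.45%) by edgeR's quasi-likelihood test at a Benjamini-Hochberg adjusted p of 0.05. With total UMIs in place of TMM scaling the same test called 633 higher and 396 lower. Matching each double-positive cell to cells of like UMI total from its library left 86 of 7761 genes higher (1.11%) and 113 lower (1.46%), of which 75 higher and 105 lower were also called without matching. The matched values are therefore given beside the main ones. These shares over all genes are the background for the counts of called genes in each list below.

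Of 30 genes on a list of the follicular program 24 could be tested, and 9 were higher and 1 lower, with a median log2 fold change of 0.51 against -0.02 over all genes tested. After matching on UMIs 7 of 23 were higher and 0 lower, with a median of 0.55. The calls leaned on the spleen, as did those over all genes, of which 509 of 8722 were higher. Without 7-week spleen 3 of 23 listed genes were higher, against 253 of 8722 over all genes. Without neonatal spleen 5 of 22 were higher, against 142 of 7242. The drop is therefore not read as particular to the list. By library, 16 of the 24 genes had a higher CPM in double-positive cells than in cells with neither gene in 7-week liver (66.7%, against 48.0% of all genes), 10 in neonatal liver (41.7% against 46.1%), 20 in 7-week spleen (83.3% against 58.9%) and 20 in neonatal spleen (83.3% against 50.4%). At least 2-fold higher were 5 of the 24 in 7-week liver (20.8%, against 8.71% of all genes), 1 in neonatal liver (4.17% against 2.91%), 11 in 7-week spleen (45.8% against 6.67%) and 3 in neonatal spleen (12.5% against 2.58%). In neonatal liver the listed genes were thus higher no more often than all genes, so the cells are called by the rule, double-positive, and not follicular-like. Whether the libraries differ in this was not tested.

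Il1r2, the decoy receptor for interleukin-1 and a known marker of Tfr cells, gave the highest fold change of the list. Double-positive cells had 115 CPM of Il1r2 against 8.33 CPM in cells with neither gene in 7-week spleen, 29.3 against 2.75 in neonatal spleen and 4.44 against 2.33 in neonatal liver, and 0 against 2.62 in 7-week liver, where 3 UMIs would already be 58.3 CPM. The gene was thus clearly above the comparison cells in both spleens, and the neonatal spleen level came mainly from 1 cell with 26 of its 41 UMIs. In 7-week spleen its 70 UMIs lay in 21 of 105 cells. The log2 fold change was 3.26 (SE 0.325, edgeR quasi-likelihood adjusted p = 1.2e-06) and 2.81 after matching on UMIs. It remained called without each library in turn.

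Tox2, a nuclear factor that supports the follicular T cell program, was at 103 CPM in double-positive cells against 8.43 CPM in cells with neither gene in 7-week spleen and at 30 against 8.49 in neonatal spleen. In 7-week liver Tox2 was at 77.7 CPM from 4 UMIs against 5.72, while in neonatal liver it was at 13.3 against 19.3. Double-positive cells were thus higher in 3 of 4 libraries and lower in neonatal liver. The log2 fold change of Tox2 was 2.04 (SE 0.374, edgeR adjusted p = 0.00089), and 2.23 after matching on UMIs. Without 7-week spleen it was 1.23 with an adjusted p of 0.0689, and over all 17 alternatives the adjusted p of Tox2 ran from 5.01e-21 to 0.132.

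Bcl6, the lineage factor of follicular T cells, had too few UMIs to be tested. Its level in double-positive cells was 19.4 CPM against 1.43 CPM in cells with neither gene in 7-week liver (1 UMI), 2.22 against 0.979 in neonatal liver (1 UMI), 29.4 against 4.21 in 7-week spleen (18 UMIs in 10 cells) and 6.42 against 1.62 in neonatal spleen (9 UMIs in 9 cells). The ratio was 6.99 in 7-week spleen (exact 95% interval 3.78 to 12.4) and 3.96 in neonatal spleen (1.63 to 8.71), counting error only. Pou2af1, a co-activator of octamer-binding factors that promotes follicular helper cells, was at 29.4 against 0.411 CPM in 7-week spleen, 7.14 against 1.69 in neonatal spleen and 11.1 against 2.51 in neonatal liver. Ascl2, a factor that induces Cxcr5, was at 11.5 against 0.514 CPM in 7-week spleen (7 UMIs), and reached 2.22 CPM or less in the other libraries. All 3 sparse genes were highest in 7-week spleen among the libraries with more than 10 double-positive cells.

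Sh2d1a, which encodes the adaptor SAP that SLAM family receptors need, was at 525 CPM in double-positive cells against 186 CPM in cells with neither gene in 7-week spleen, 335 against 181 in neonatal spleen, 408 against 264 in 7-week liver and 264 against 254 in neonatal liver. It was higher in 4 of 4 libraries, with a log2 fold change of 0.76 (SE 0.149, edgeR adjusted p = 0.00163) that was 0.51 without 7-week spleen (adjusted p = 0.0534; 2.25e-09 to 0.276 over its alternatives). Slamf6, a SLAM family receptor, was higher in 4 of 4 libraries by 0.52 on the log2 scale (edgeR adjusted p = 0.00474) and remained called without each library. Cd40lg, the ligand that activates B cells through CD40, was higher by 0.76 (edgeR adjusted p = 0.0292) and was not called after matching (adjusted p = 0.136), nor without either spleen (adjusted p = 0.17 and above; 0.00604 to 0.629 over its alternatives).

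Tigit, an inhibitory receptor, was at 525 CPM in double-positive cells against 113 CPM in cells with neither gene in 7-week spleen and 320 against 150 in neonatal spleen, but at 400 against 462 in neonatal liver. Its log2 fold change was 0.93 (edgeR adjusted p = 0.00707), and it was 0.50 without 7-week spleen (adjusted p = 0.157) and 0.90 without neonatal spleen (adjusted p = 0.0666). Tox and Nfatc1, factors downstream of the T cell receptor, were higher by 0.63 and 0.53 on the log2 scale (edgeR adjusted p = 0.00611 and 0.0163), and neither was called without 7-week spleen (adjusted p = 0.153 for Tox and 0.202 for Nfatc1) or without neonatal spleen (adjusted p = 0.109 for Tox and 0.133 for Nfatc1). Batf, an AP-1 factor needed by follicular helper cells, was higher by 0.78 (edgeR adjusted p = 0.00117) and missed the threshold after matching (adjusted p = 0.0514). Adjusted p over the alternatives reached 0.482 for Tigit, 0.379 for Tox, 0.518 for Nfatc1 and 0.321 for Batf.

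Several textbook follicular genes did not pass the test. Maf, a factor that promotes IL-21 and follicular cells, was at 362 against 115 CPM in 7-week spleen and 114 against 62.1 in neonatal spleen, with a log2 fold change of 0.61 (edgeR adjusted p = 0.0815). Icos, the co-stimulatory receptor required for follicular T cells, was at 319 against 170 CPM in 7-week spleen and 198 against 128 in neonatal spleen, but at 198 against 310 in neonatal liver (log2 fold change 0.23, adjusted p = 0.45). Both had their double-positive cells above the comparison cells in spleen and below them in neonatal liver. Values for Cd200, Btla, Cd84, Tnfsf8, S1pr2, Irf4, Tcf7, Id3, Cxcr4, Angptl2, Gpm6b and Neurl3 lay between -0.52 and 1.09 on the log2 scale, with none called. Lef1, a factor shared with naive T cells, fell by 0.46 (edgeR adjusted p = 0.0217), and was not called after matching (adjusted p = 0.488), without 7-week spleen (adjusted p = 0.143) or without neonatal spleen (adjusted p = 0.348), with up to 0.915 over its alternatives.

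Il21 and Il4, the cytokines of follicular helper cells, were scarce. Il21 had 4 UMIs in 3 of the 105 double-positive cells of 7-week spleen (6.54 CPM, against 0.103 in cells with neither gene) and 0 in the other libraries. Il4 had 12 UMIs in 7 cells of 7-week spleen, while its 18 UMIs in neonatal liver were all in 1 cell. Sostdc1, a Wnt and BMP antagonist reported in Tfr cells, had 8 UMIs, all in 1 cell of 7-week spleen.

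**Figure D2:**
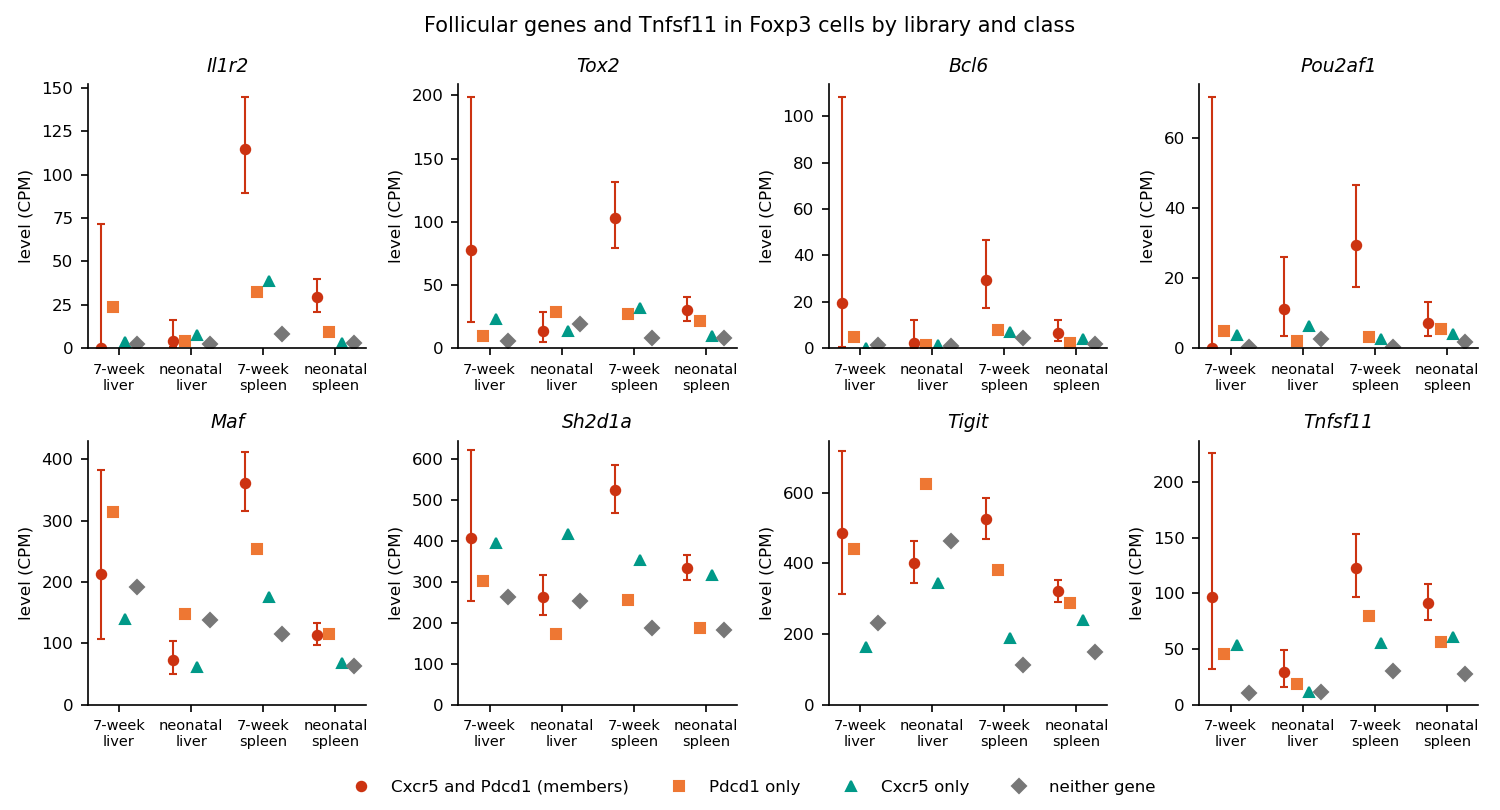
Level (y axis, CPM of the summed UMIs) of 7 follicular genes and Tnfsf11 in Foxp3 cells of each library, for double-positive cells (circles, with exact 95% Poisson intervals that cover counting error only) and for cells with Pdcd1 only, Cxcr5 only and neither gene. In 7-week spleen the double-positive cells sit at 115 CPM for Il1r2 and 103 CPM for Tox2, above the other 3 classes, whereas in neonatal liver they sit at 4.44 CPM for Il1r2 and 13.3 CPM for Tox2, no higher than the highest of the other classes.

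Cells varied within the class. At least 1 UMI of Bcl6, Tox2 or Il1r2 was found in 4 of 10 double-positive cells of 7-week liver (40%), 6 of 45 of neonatal liver (13.3%), 54 of 105 of 7-week spleen (51.4%) and 36 of 146 of neonatal spleen (24.7%), against 2.92%, 9.42%, 5.13% and 4.72% of cells with neither gene in that order. Among Pdcd1-only cells the shares were 9.57%, 19.3%, 18.7% and 16.3%, above the double-positive share in neonatal liver. The double-positive cells were the deeper ones in most of these comparisons, and the part of depth in these shares was not tested. After thinning to 2000 UMIs, Tox2 was found in 18.1% of the double-positive cells of 7-week spleen against 1.52% of cells with neither gene. Maf was found in 45.7% against 15.7%. Klf2 went the other way, at 20% against 60.4%.

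Levels in 7-week spleen are given by the number of Cxcr5 and Pdcd1 UMIs per cell, the UMIs that the rule used, as a description of the cells just outside and just inside the rule. Just outside were 158 cells with 1 Cxcr5 UMI and no Pdcd1 and 407 with 1 Pdcd1 UMI and no Cxcr5; just inside were 31 cells with 1 UMI of each. Tox2 was at 8.43 CPM in cells with neither gene, 22.4 and 17.9 CPM in the cells just outside (Cxcr5, then Pdcd1), 73.5 in those just inside, 119 with 3 or 4 UMIs and 110 with 5 or more. Il1r2 was at 8.33, 25.6, 24.0, 13.4, 87.3 and 179 CPM along the same series. Klf2 was at 672, 540, 460, 267, 112 and 103 CPM. The Il1r2 level just inside the rule rests on 2 UMIs, and its exact interval (1.62 to 48.3) covers both levels just outside, so no dip is read. Il1r2 was highest with 5 or more UMIs (135 to 234), though this interval overlapped that with 3 or 4 (47.8 to 147). Klf2 was lower in value at each step. Its intervals overlapped between the cells just outside (484 to 601 and 427 to 494). They also overlapped between 3 or 4 UMIs (66.6 to 177) and 5 or more (69.9 to 146). In neonatal spleen Tox2 was at 8.49 CPM with neither gene and at 7.84 and 19.7 CPM just outside (Cxcr5, then Pdcd1). It was at 12.3 CPM with 1 UMI of each, 38.3 with 3 or 4 and 40.5 with 5 or more. The level just inside rests on 6 UMIs. Its interval (4.53 to 26.8) overlapped both just outside (3.38 to 15.4 and 15.4 to 24.8), so no rise at the rule is read there. Median depth also grew along the series, with 6987 UMIs per cell at 5 or more in 7-week spleen against 2986 with neither gene, and its part in these levels was not tested.

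**Figure D3:**
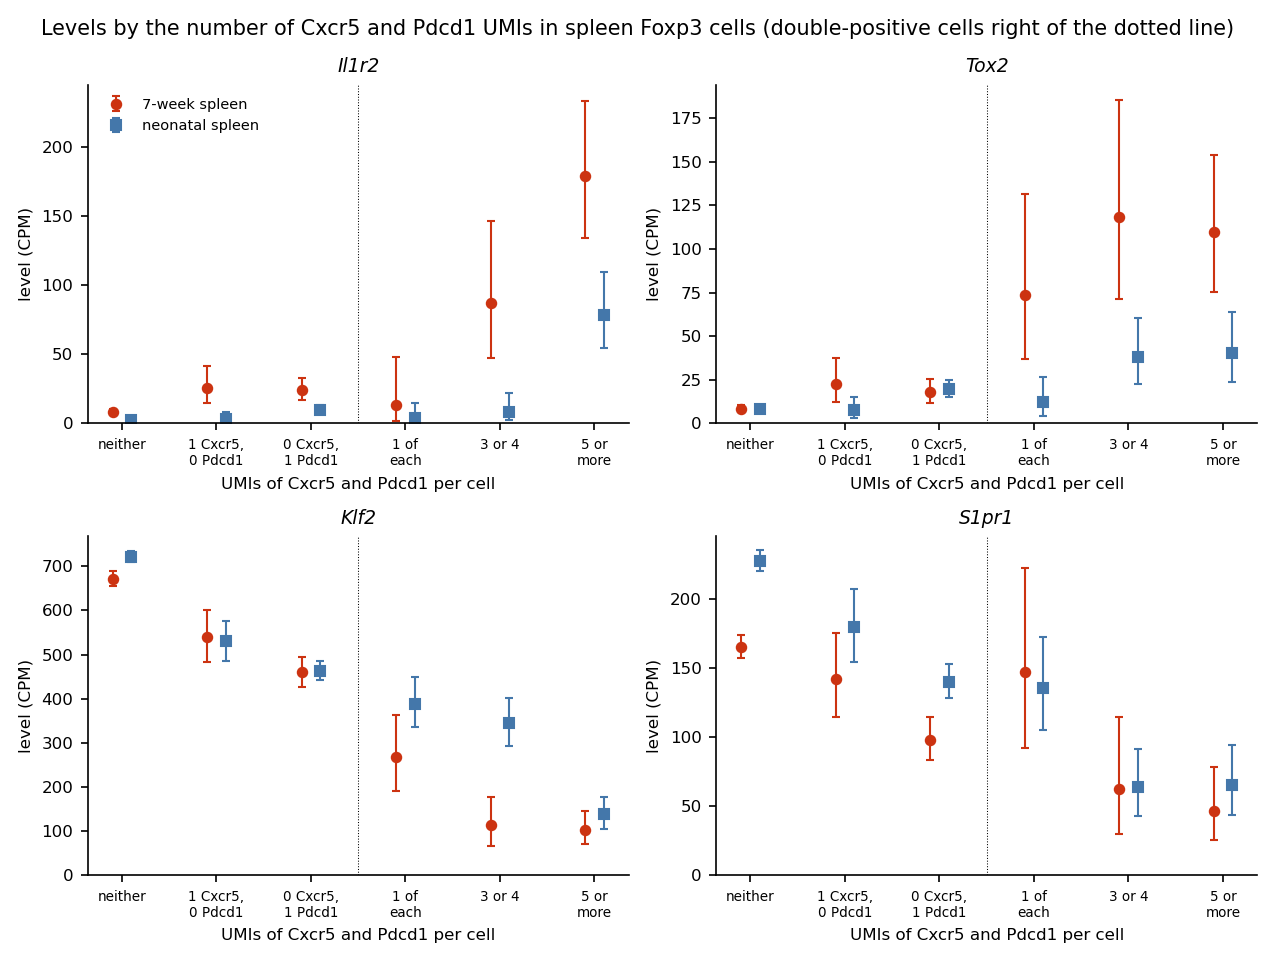
Level (y axis, CPM) of Il1r2, Tox2, Klf2 and S1pr1 in spleen Foxp3 cells arranged by their Cxcr5 and Pdcd1 UMIs (x axis, from neither gene to 5 or more), with exact 95% Poisson intervals for counting error only; circles are 7-week spleen and squares neonatal spleen. Klf2 runs down to 103 CPM in 7-week spleen and 137 CPM in neonatal spleen at 5 or more UMIs, and Tox2 is at 110 CPM in 7-week spleen and 40.5 CPM in neonatal spleen there.

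Of 17 listed opponents of the follicular program, all of which were tested, 9 were lower and 1 higher, with a median log2 fold change of -0.53. After matching on UMIs 4 were lower and 1 higher, with a median of -0.35. Over all genes 6.45% were lower and 5.84% higher, and after matching 1.46% and 1.11%. Il2ra, the high-affinity chain of the IL-2 receptor, was at 19.4 CPM in double-positive cells against 232 CPM in cells with neither gene in 7-week liver, 86.6 against 138 in neonatal liver, 99.8 against 295 in 7-week spleen and 118 against 222 in neonatal spleen. It was lower in 4 of 4 libraries, by -1.18 on the log2 scale (SE 0.174, edgeR adjusted p = 0.000125) and by -0.98 after matching (adjusted p = 0.00238, up to 0.136 over its alternatives). Il2rb, the IL-2 receptor beta chain, was lower by -0.62 (edgeR adjusted p = 0.00472), and Il7r, the interleukin-7 receptor, by -1.39 (edgeR adjusted p = 1.97e-05), both in 4 of 4 libraries and both still called after matching. Selplg, the selectin ligand PSGL-1, was lower in 4 of 4 libraries by -0.77 (edgeR adjusted p = 3.65e-05). Socs2, a suppressor of cytokine signalling induced through STAT5, was among the lowest of all genes, at -2.67 (SE 0.263, edgeR adjusted p = 1.14e-06), and was called in all 17 alternatives.

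Klf2 and S1pr1, genes of recirculation, had lower levels in the spleens and levels near those of the comparison cells in the livers. Klf2, which holds T cells in recirculation, was at 146 CPM in double-positive cells against 672 CPM in cells with neither gene in 7-week spleen and 294 against 722 in neonatal spleen, but at 1049 against 1028 in 7-week liver and 522 against 585 in neonatal liver. S1pr1, the sphingosine phosphate receptor for exit from lymphoid tissue, was at 75.2 against 165 CPM in 7-week spleen, 89.2 against 227 in neonatal spleen, 214 against 192 in 7-week liver and 133 against 139 in neonatal liver. Their log2 fold changes were -1.04 for Klf2 and -0.89 for S1pr1 (edgeR adjusted p = 0.00626 and 0.00353). Neither was called after matching (adjusted p = 0.0915 for Klf2 and 0.0719 for S1pr1), without 7-week spleen (adjusted p = 0.0952 and 0.0579) or without neonatal spleen (adjusted p = 0.126 and 0.22). Over the alternatives the adjusted p reached 0.433 for Klf2 and 0.314 for S1pr1. Gpr183, a guidance receptor for the follicle border, was the opponent that was higher, by 0.69 (edgeR adjusted p = 0.02), and it was not called without 7-week liver (adjusted p = 0.0519), 7-week spleen (adjusted p = 0.24) or neonatal spleen (adjusted p = 0.194), with up to 0.652 over its alternatives. Foxo1, Foxp1 and Stat5b, factors of quiescence and of the IL-2 signal, had log2 fold changes of -0.42, -0.66 and -0.48. None of them was called after matching (adjusted p = 0.618, 0.387 and 0.6), without 7-week spleen (adjusted p = 0.161, 0.115 and 0.114) or without neonatal spleen (adjusted p = 0.112, 0.147 and 0.124), and Stat5b was also lost without neonatal liver (adjusted p = 0.0756).

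A list of 14 resting T cell genes, 7 of which are also on the opponents list, had 10 lower and 0 higher, with a median of -0.78, and 3 of 13 lower after matching. Ly6c1, a surface antigen of resting and circulating T cells, had 0 UMIs in the double-positive cells of both liver libraries, against 148 CPM in cells with neither gene in 7-week liver and 33.3 in neonatal liver. In spleen Ly6c1 was at 18 against 153 CPM in the 7-week library and at 3.57 against 86.8 in the neonatal one. It was lower in 4 of 4 libraries by -3.88 (SE 0.357, edgeR adjusted p = 4.81e-07). Igfbp4, an insulin-like growth factor binding protein of naive T cells, was lower in 4 of 4 libraries by -2.73 (edgeR adjusted p = 2.55e-07). Satb1, a chromatin organiser of naive T cells, was lower by -1.49 (edgeR adjusted p = 0.000606) and missed the threshold after matching (adjusted p = 0.0659, up to 0.223 over its alternatives).

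Of 20 listed effector Treg genes 7 were lower and 2 higher, with a median of -0.15, and 7 of 18 were lower and 1 higher after matching. By library, 6 of the 20 had a higher CPM in double-positive cells than in cells with neither gene in 7-week liver (30%, against 48.0% of all genes). In that library 8 were at 0 in double-positive cells. Higher were 8 in neonatal liver (40% against 46.1%), 12 in 7-week spleen (60% against 58.9%) and 7 in neonatal spleen (35% against 50.4%). Gzmb, the cytotoxic protease granzyme B, was at 0 CPM in double-positive cells against 87.6 CPM in cells with neither gene in 7-week liver, 79.9 against 813 in neonatal liver, 3.27 against 24.2 in 7-week spleen and 12.1 against 175 in neonatal spleen. Klrg1, an inhibitory receptor of terminal effectors, was at 0 against 130 CPM in 7-week liver, 149 against 588 in neonatal liver, 8.18 against 64.4 in 7-week spleen and 33.5 against 216 in neonatal spleen. Both were lower in 4 of 4 libraries. The log2 fold change was -3.55 for Gzmb (SE 0.233, edgeR adjusted p = 2.33e-09) and -2.30 for Klrg1 (SE 0.278, edgeR adjusted p = 1.35e-05), with -3.58 and -2.38 after matching. Ccr2, a receptor for inflammatory chemokines, was lower in 4 of 4 libraries by -2.49 (edgeR adjusted p = 1.35e-05). Itgae, the integrin CD103 of tissue-resident cells, was lower in 4 of 4 by -3.03 (edgeR adjusted p = 0.000227), and so was Ltb4r1, a leukotriene B4 receptor, by -2.13 (edgeR adjusted p = 0.000736).

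**Figure D4:**
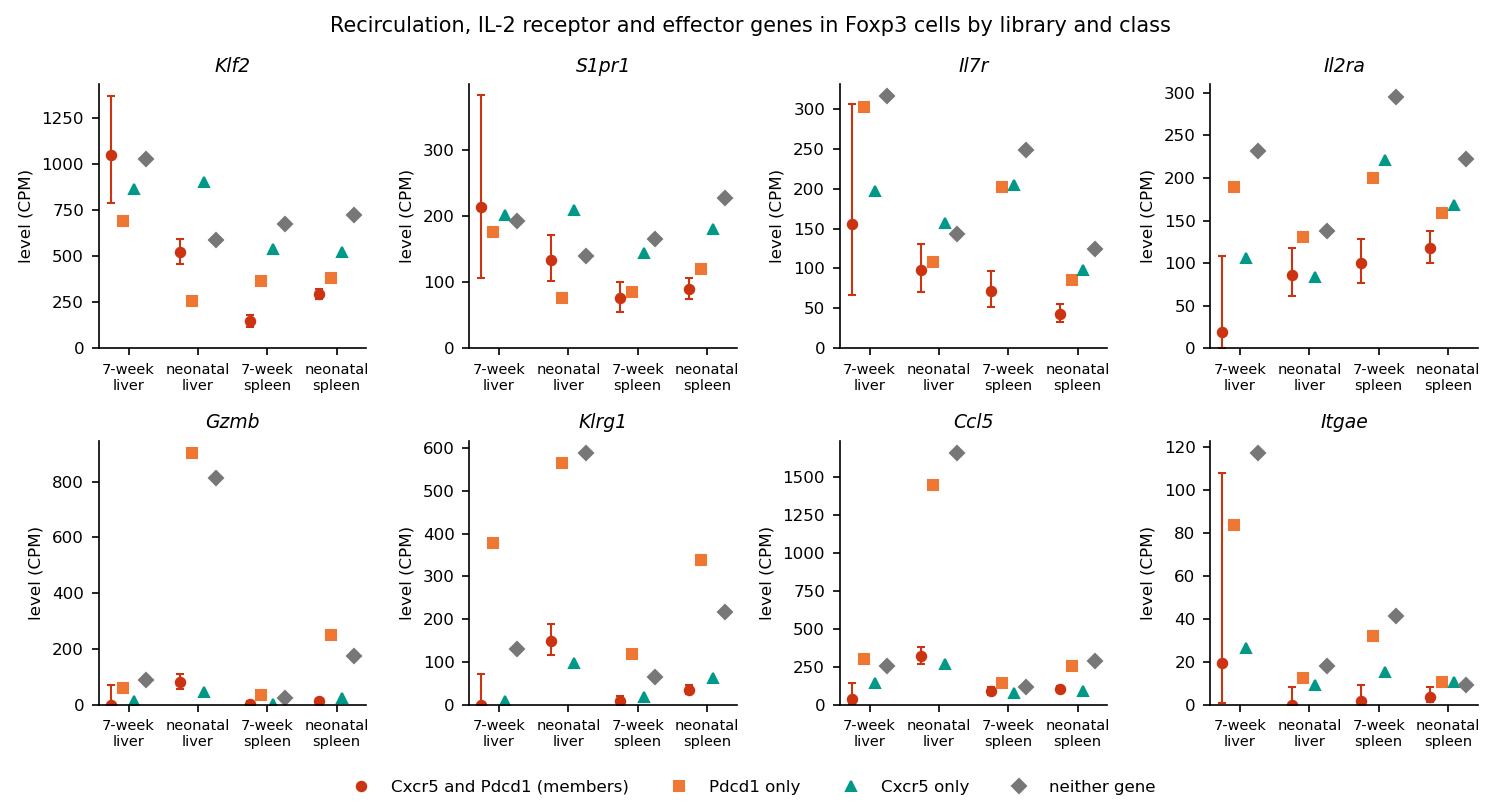
Level (y axis, CPM of the summed UMIs) of 8 genes of recirculation, cytokine receptors and effector function in each library, for double-positive cells (circles, with exact 95% Poisson intervals that cover counting error only) and for cells with Pdcd1 only, Cxcr5 only and neither gene. Gzmb is at 79.9 CPM in double-positive cells of neonatal liver against 813 CPM in cells with neither gene, while Klf2 is low in double-positive cells of the spleens, at 146 CPM in 7-week spleen and 294 CPM in neonatal spleen.

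The clearest rise shared by all 4 libraries was that of Tnfsf11, which encodes the TNF family cytokine RANKL. It was at 97.1 CPM in double-positive cells against 10.5 CPM in cells with neither gene in 7-week liver, 28.9 against 11.6 in neonatal liver, 123 against 30.1 in 7-week spleen and 91.4 against 27.0 in neonatal spleen. Its log2 fold change was 1.78 (SE 0.182, edgeR adjusted p = 1.25e-06), and 1.92 after matching. Nrn1, which encodes the neuropeptide neuritin that follicular Treg cells are known to secrete, was at 117 against 15.7 CPM in 7-week liver, 295 against 92.9 in neonatal liver, 80.2 against 27.3 in 7-week spleen and 198 against 47.4 in neonatal spleen. It was higher in 4 of 4 libraries by 1.77 (SE 0.272, edgeR adjusted p = 0.000173) and by 1.61 after matching. Ccr8, a chemokine receptor of activated tissue Treg cells, was higher in 4 of 4 by 1.41 (edgeR adjusted p = 0.00014), and Bcl2a1d, a survival gene of the BCL2 family, by 1.48 (edgeR adjusted p = 1.28e-05). Bcl2a1d has near-identical copies, among which reads could be split. Tnfsf11, Nrn1, Ccr8 and Bcl2a1d each remained called after matching and without each library in turn.

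Genes that follow T cell receptor signalling had 6 of 18 higher and 1 lower, with a median of 0.50, and 6 of 17 higher and 1 lower after matching. Cd83, an activation marker, was at 77.7 against 48.8 CPM in 7-week liver, 82.1 against 36.9 in neonatal liver, 211 against 89.2 in 7-week spleen and 207 against 60.6 in neonatal spleen (log2 fold change 1.38, edgeR adjusted p = 0.000201). Egr2, a zinc finger factor induced by the receptor, was at 62.2 against 19.8 CPM in 7-week spleen and 40.7 against 10.5 in neonatal spleen, and close in neonatal liver at 6.66 against 5.94. The Egr2 call (1.62, edgeR adjusted p = 0.000451) was lost without neonatal spleen (adjusted p = 0.107, and up to 0.449 over its alternatives). Of 8 inhibitory receptor genes tested 3 were higher and 0 lower, namely Tigit, Lag3 and Cd160. Lag3, which binds MHC class II, was at 263 against 50.8 CPM in 7-week spleen but 64.4 against 93.3 in neonatal liver, and its call (1.09, edgeR adjusted p = 0.00592) was lost without 7-week spleen (adjusted p = 0.288) or neonatal spleen (adjusted p = 0.0535), reaching 0.379 over its alternatives. Cd160, a receptor for HVEM, was higher by 1.34 (edgeR adjusted p = 0.000809), and was not called without neonatal spleen (adjusted p = 0.0984, up to 0.445 over its alternatives). Of 12 immediate early genes 3 were lower and 0 higher, with Jun at -1.24, Klf6 at -1.08 and Fos at -0.90 (edgeR adjusted p = 3.75e-05, 0.000212 and 0.000872); Fos was not called after matching (adjusted p = 0.238, up to 0.52 over its alternatives).

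Of 13 Treg identity genes 2 were higher and 4 lower, and after matching 2 were higher and 3 lower. Gpr83, a receptor of Treg cells, was lower in 4 of 4 libraries by -1.51 (edgeR adjusted p = 0.000563) and missed the threshold without neonatal spleen (adjusted p = 0.0699, up to 0.516 over its alternatives). Itgb8, an integrin chain that activates TGF-beta, was higher by 1.04 (edgeR adjusted p = 0.0172) but not without 7-week spleen (adjusted p = 0.268) or neonatal spleen (adjusted p = 0.0602), with up to 0.552 over its alternatives. Of 15 interferon response genes 5 were lower and 0 higher, among them the GTPase genes Gbp2 at -1.01 and Gbp7 at -0.82 (edgeR adjusted p = 0.00169 and 0.00082); Gbp2 was lost without 7-week spleen (adjusted p = 0.0516, up to 0.897 over its alternatives). Of 11 glycolysis genes 6 were higher and 0 lower, and 2 of 11 were higher after matching, the enzymes Tpi1 (0.71) and Pgam1 (0.57). Of 14 homing receptor genes 1 was higher and 4 lower, and of 6 genes of recent thymic output 2 were higher (Tox and Hivep3) and 0 lower. Over all genes tested 5.84% were higher and 6.45% lower.

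All 20 listed proliferation genes were higher in double-positive cells, with a median log2 fold change of 1.0, and after matching on UMIs 0 of 20 were called, with a median of 0.05. Ccnb1, the mitotic cyclin B1, had 1.52 without matching (edgeR adjusted p = 0.00035) and 0.41 after it (adjusted p = 0.48, up to 0.543 over its alternatives). Cells with at least 5 UMIs of the proliferation list made up 60% of double-positive cells in 7-week liver, 86.7% in neonatal liver, 60% in 7-week spleen and 82.2% in neonatal spleen, against 30.2%, 62.0%, 27.8% and 57.0% of cells with neither gene. This threshold is a raw count that deeper cells reach more readily, so the shares depend on depth and are not read as a cell state. Cells that passed it, called cycling here, had a median of 10104 UMIs against 2023.5 in the other double-positive cells in neonatal liver. The medians were 8807.5 against 4926.5 in neonatal spleen, 5880 against 3687.5 in 7-week spleen and 4508.5 against 4234.5 in 7-week liver. Matching on UMIs thus also acts on this label. The parts of depth and of cycling in these values cannot be told apart here. With all such cells left out, 270 genes were called over the spleen libraries, the 2 that still had at least 10 double-positive cells, and Tox2 had a log2 fold change of 3.08.

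**Figure D5:**
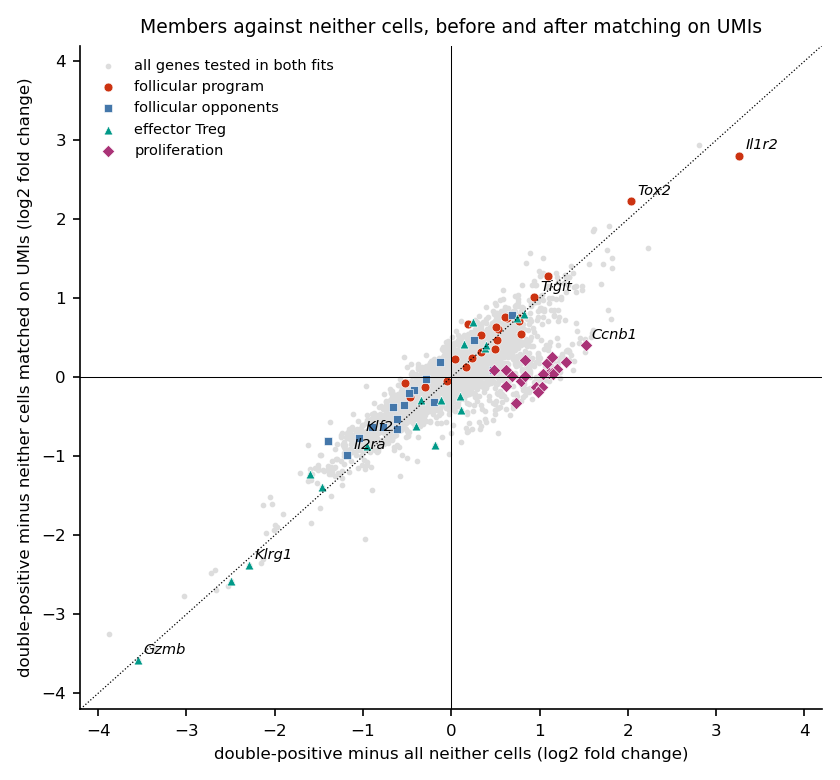
Log2 fold change of double-positive cells over cells with neither gene (x axis) and over cells with neither gene matched on total UMIs (y axis), for all genes tested in both fits (grey) and for 4 gene lists; the dotted line marks equal values. The proliferation genes lie near 0 on the y axis, with a median of 0.05, while Il1r2, Tox2, Gzmb and Klrg1 lie close to the line.

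The fewest genes were called against Pdcd1-only cells. There 12 of 8722 genes were higher in double-positive cells (0.138%) and 37 lower (0.424%) by edgeR's quasi-likelihood test. On the follicular list 3 of 24 were higher and 0 lower, with a median of 0.13. These were Slamf6 at 0.68 (adjusted p = 0.00751), Sh2d1a at 0.81 (adjusted p = 0.0107) and Il1r2 at 1.57 (SE 0.307, adjusted p = 0.0137). None of these calls held without every library in turn: Il1r2 was lost without 7-week spleen (adjusted p = 0.303) and without neonatal spleen (adjusted p = 0.182), Sh2d1a likewise (adjusted p = 0.0769 and 0.151) and Slamf6 without neonatal liver (adjusted p = 0.071). Over their alternatives the adjusted p reached 0.612 for Il1r2, 0.151 for Sh2d1a and 0.071 for Slamf6. Tox2 (0.98), Maf (0.01), Icos (-0.16) and Tigit (0.04) were not called. In 7-week spleen Tox2 was nonetheless at 103 CPM in double-positive against 26.8 CPM in Pdcd1-only cells, and Il1r2 at 115 against 32.5.

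Of the 37 genes lower than in Pdcd1-only cells 7 were on the effector Treg list, of which 7 of 20 were lower and 0 higher, with a median of -0.62. Gzmb was at 79.9 CPM in double-positive cells against 901 CPM in Pdcd1-only cells in neonatal liver, 0 against 57.5 in 7-week liver, 3.27 against 32.5 in 7-week spleen and 12.1 against 249 in neonatal spleen. Klrg1 was at 149 against 567 in neonatal liver, 0 against 379 in 7-week liver, 8.18 against 119 in 7-week spleen and 33.5 against 337 in neonatal spleen. The double-positive cells were lower in all 4 libraries for both genes. The log2 fold changes were -3.76 for Gzmb (SE 0.232, edgeR adjusted p = 6.67e-10) and -2.91 for Klrg1 (SE 0.28, edgeR adjusted p = 2.14e-06). Cxcr6, a receptor for liver and tissue homing, was lower in 4 of 4 libraries by -2.28 (edgeR adjusted p = 7.56e-05). Gzmb, Klrg1 and Cxcr6 were the 3 of 12 named calls that held without each library in turn. Ccl5, a chemokine of effector T cells, was lower by -1.57 (edgeR adjusted p = 0.00197). Itgae at -2.65 (edgeR adjusted p = 0.0137) was lost without 7-week spleen (adjusted p = 0.235) or 7-week liver (adjusted p = 0.056), and Ltb4r1 at -2.58 without neonatal spleen (adjusted p = 0.0832).

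Against Cxcr5-only cells 112 of 8722 genes were higher in double-positive cells (1.28%) and 130 lower (1.49%) by edgeR's quasi-likelihood test, and with total UMIs in place of TMM scaling 136 were higher and 87 lower. Resting genes had 8 of 14 lower and 0 higher, with a median of -0.93, and the opponents of the follicular program 7 of 17 lower. Ly6c1 was the lowest of the named genes, at -3.09 (SE 0.451, edgeR adjusted p = 0.000807). On the follicular list 2 of 24 were higher, Il1r2 at 1.70 (edgeR adjusted p = 0.0226) and Batf at 0.66 (edgeR adjusted p = 0.0407), and both were lost without 7-week spleen (adjusted p = 0.15 for Il1r2 and 0.423 for Batf) or neonatal spleen (adjusted p = 0.241 for Il1r2 and 0.118 for Batf). Batf was also lost without neonatal liver (adjusted p = 0.0616). Sh2d1a (0.02) and Slamf6 (0.01) were not called in this comparison, and neither was any effector gene lower. Ccr8 was higher by 1.65 (edgeR adjusted p = 0.00338), and Ccr8 and Ly6c1 were the 2 of 12 named calls that held without each library. Proliferation genes had 9 of 20 higher, and 12 of 20 after matching on UMIs. That matching was incomplete, since there were too few Cxcr5-only cells of like depth. The matched cells had a median of 6212 UMIs against 8301 in double-positive cells in neonatal liver. The medians were 6942.5 against 8087 in neonatal spleen and 4626 against 5275 in 7-week spleen, so these counts do not hold depth equal.

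Between libraries only ratios are given, for the libraries with at least 30 double-positive cells, for genes with at least 20 UMIs in the library of higher level, and with no test. In 7-week spleen over neonatal spleen 319 of 5646 genes had a level higher by 2-fold or more (5.65%) and 358 a level lower by as much (6.34%). The ratio of Tox2 was 3.44 (exact 95% interval 2.29 to 5.21), while in cells with neither gene it was 0.992. For Maf the ratio was 3.17 (2.57 to 3.90) and 1.86 in cells with neither gene, and for Tigit it was 1.64 (1.42 to 1.90) and 0.755. Klf2 had a ratio of 0.495 (0.389 to 0.624), against 0.931 in cells with neither gene. The intervals of these 4 genes in double-positive cells did not hold the ratio found in cells with neither gene; they cover counting error within 1 library each, and a difference between the ages was not tested. For Il1r2 the ratio was 3.91 (2.62 to 5.90) and 3.03 in cells with neither gene, but 26 of the 41 UMIs in neonatal spleen lay in 1 cell. The highest ratios were those of the inflammatory caspase gene Casp4 (21.4, 6.61 to 110) and of the antiviral gene Oas1a (21.2, 7.62 to 81.9), which were also up in cells with neither gene, at 4.27 and 11.4. Among the lowest were the mitotic genes Hmmr (0.0546) and Aurka (0.0559), for which the ratios in cells with neither gene were 0.224 and 0.259.

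In neonatal liver over neonatal spleen 146 of 5305 genes had a level higher by 2-fold or more (2.75%) and 448 a level lower by as much (8.44%). Effector genes were among the higher ones: Gzmb had a ratio of 6.59 (3.60 to 12.5), Klrg1 of 4.43 (3.01 to 6.58) and Ccl5 of 3.11 (2.45 to 3.95), against 4.65, 2.72 and 5.81 in cells with neither gene. Of the 45 double-positive cells of neonatal liver only 10 held Gzmb, 12 Klrg1 and 14 Ccl5. The richest few held 66.7%, 61.2% and 64.6% of those UMIs, so these ratios do not describe the whole class. Lgals3, a galectin of activated cells, had a ratio of 9.40 (6.71 to 13.4), against 3.51, with 54.2% of its neonatal liver UMIs in the richest few cells. Il1r2 had a ratio of 0.152 (0.0178 to 0.584), Tox of 0.54 (0.391 to 0.734) and Id3, an inhibitor of E proteins, of 0.501 (0.39 to 0.635). In cells with neither gene these ratios were 0.846, 0.922 and 0.251, so Id3 was lowered less in double-positive cells. Slamf6, Batf and Tigit of the follicular list had ratios above 1, at 1.51, 1.31 and 1.247. Their ratios in cells with neither gene were 1.19, 1.36 and 3.09. The Il1r2 ratio rests on 2 UMIs in neonatal liver and on 41 UMIs in 9 cells of neonatal spleen, most of them in 1 cell. Klf2 was higher in the liver double-positive cells (1.77, 1.5 to 2.09), though in cells with neither gene its ratio was 0.81. The antigen presentation and B cell genes Cd79a, H2-Aa and H2-Eb1 also led this comparison, and all of their neonatal liver UMIs came from the 2 cells with B cell RNA.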

How the data were processed

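The deposited values are counts of UMIs per gene and barcode, which the authors made using version 4.0.0 of Cell Ranger (per the file headers); the submitters' processing notes name mm10 and Seurat 4.0.2, and other filters on the deposited barcodes are not given in the sources used here. Of 32285 features 32158 (99.6%) matched GENCODE vM21 on GRCm38. Barcodes under 500 detected genes or over 10% mitochondrial UMIs were dropped, and the rest were given a class by their Foxp3, Cxcr5 and Pdcd1 UMIs. UMIs were summed per library and class and fitted with edgeR 4.0.16 in R 4.3.3 (TMM, filterByExpr, quasi-likelihood test, class and library as terms, Benjamini-Hochberg threshold 0.05); Cxcr5, Pdcd1 and Foxp3 were left out of the tests. A library entered a fit with at least 10 double-positive cells. DESeq2 1.42.0 was an alternative. The library term takes up differences in level between libraries. The p-values therefore measure how far the differences between classes vary over 4 libraries that differ in age and tissue, with 1 spread estimated over the 4 classes. They do not measure spread between animals, since no label gives replicate cultures or animals. For depth matching, up to 5 cells with the nearest UMI total were taken per double-positive cell. Matched cells with only 1 of the genes could stay shallower. In 7-week spleen their median was 4084 UMIs (Pdcd1 only) and 4626 (Cxcr5 only) against 5275. Intervals are exact 95% ones (binomial, Poisson or conditional binomial) and, like limits from a count of 0 (3 counts), cover counting error only. Scrublet's automatic threshold marked 0 cells, so the top scores were marked at 0.8% per 1000 cells; marked cells were left out only in an alternative.

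The members and the gene lists were chosen with earlier results of these data known. Genes named are those of the follicular program and opponents lists, the 10 highest and 10 lowest called fold changes that had 1 direction in every library and 25 CPM in the higher class (5 and 5 for the secondary comparisons and between libraries), and up to 4 called genes of each other list, without receptor, immunoglobulin, ribosomal, mitochondrial, sex-linked and unnamed genes; a few more were named after their values were seen. On simulated counts for 8765 genes, the comparison with cells with neither gene recovered 100% of genes raised 4-fold, 98% of those lowered 4-fold, 62% of those raised 2-fold and 52% of those lowered 2-fold, with 5 false calls among 8565 unchanged genes. The genes changed in that simulation averaged at least 25 CPM in cells with neither gene, and all counts were drawn with 1 fixed spread. The rates therefore do not cover sparser genes such as Il1r2 and Tox2, or UMIs gathered in single cells. Alternatives changed the tool, scaling, filter, doublets, depth, cell filters, library term and libraries. Python 3.11.15 with scanpy 1.11.5 and scipy 1.17.1 was used for the cell steps. The results of 1 gene are not reported here.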

Additional observations from a re-analysis of the deposited data

Results flagged for a closer look

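Cells without a Foxp3 UMI that held both Cxcr5 and Pdcd1 were counted as a signal outside the cells described above, since the sort was for Foxp3GFP+ cells. There were 7 such cells of 966 in 7-week liver, 8 of 1511 in neonatal liver, 75 of 2196 in 7-week spleen and 51 of 1883 in neonatal spleen. In 7-week spleen these 75 cells had 40.1 CPM of Bcl6, 164 CPM of Tox2, 21.6 CPM of Il21 and 145 CPM of Cd40lg. The double-positive Foxp3 cells of that library had 29.4, 103, 6.54 and 54 CPM. Of these genes only Cd40lg had exact 95% intervals that did not overlap (107 to 193 against 37.2 to 75.8). Il21 rested on 7 UMIs against 4. Il1r2 was at 61.8 CPM in the 75 cells against 115 CPM in the double-positive Foxp3 cells, with overlapping intervals (37.7 to 95.4 against 89.3 to 145). Icos was at 306 against 319 CPM. Of the Treg genes, Ikzf2 was at 661 against 628 CPM and Izumo1r at 1529 against 1256. Il2ra was at 74.1 against 99.8 CPM and Ctla4 at 275 against 574. The median depth of the 75 cells was 3837 UMIs against 5275, and the part of depth in this count was not tested.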

How the results depend on the processing

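Of 1345 alternative values for the 92 named calls, 1069 kept direction and call, 275 kept direction only and 1 reversed (Dapl1 against cells with neither gene, 0.75 with cycling cells left out). Against cells with neither gene, 1072 genes were called; the count was 199 after matching on UMIs, 107 with cells of 2 or more UMIs of other cell types left out (2 libraries remained), 270 with cycling cells left out (2 libraries), 8 without the library term, and 310 to 1059 leaving out each library. Against Pdcd1-only cells (49 called) it was 242 with no filter and 18 to 47 leaving out each library; against Cxcr5-only cells (242 called) it was 481 and 29 to 197. DESeq2 called 896, 52 and 329. With other-cell-type UMIs left out, a step that removed most double-positive cells, the shares were 0.148% in 7-week liver, 0.347% in neonatal liver, 0.787% in 7-week spleen and 1.35% in neonatal spleen; thinned, they were 0.131% in neonatal liver, 1.22% in 7-week spleen and 0.503% in neonatal spleen. Genes at least 2-fold apart numbered 309 at 40 or more UMIs and 116 with other-cell-type UMIs left out for 7-week over neonatal spleen, and 226 and 216 for neonatal liver over neonatal spleen. With other-cell-type UMIs left out these counts are over 745 and 534 genes, against 5646 and 5305 otherwise, and over 3 double-positive cells in neonatal liver, 14 in 7-week spleen and 19 in neonatal spleen, below the minimum of 30 set for such ratios. The cause was not tested. Leaving out cells with a B cell UMI was chosen after seeing the data and left 798 genes called; it also took 7-week liver, at 9 double-positive cells, out of the fit, so that 3 libraries remained. Counting error limits 7-week liver most, with 10 double-positive cells. No paired analysis between ages or tissues was possible because each group has 1 library. Classes of cells were compared within each library, with the library as the block.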
